A study of Mus musculus with 8 samples.

Results

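The YAP/TEAD genes described here are 10 genes chosen by symbol from the count table of 37310 genes: Ctgf, Cyr61, Ankrd1, Amotl1, Amotl2, Lats2, Yap1, Wwtr1, Tead1 and Axl. They fill 11 lines of the table, because the symbol Tead1 belongs to 2 gene identifiers. The second of these, a transcript nested in the protein-coding gene, had 0 counts in all 8 libraries, so Tead1 below means the protein-coding gene. All 10 genes were among the 13028 tested.

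YAP (the product of Yap1) and TAZ (the product of Wwtr1) are transcriptional co-activators that have no DNA-binding domain of their own and reach promoters and enhancers through the TEAD factors. The Hippo kinases, with LATS1 and LATS2 at the end of the cascade, phosphorylate both co-activators, which are then held in the cytoplasm or degraded. In epithelial cells the pathway is known for reading cell contact, cell shape and tension, and several of its target genes also respond to TGF-β through SMAD factors.

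The cells were NMuMG, an established line of epithelial cells from normal mouse mammary gland, grown with 10% serum and insulin. RNA was sequenced from 4 groups of 2 libraries each. These were control cells without TGF-β, control cells given TGFβ1 at 10 ng/ml for 2 h, and the same pair of conditions in cells labelled KO. By the study's methods the KO cells carry a CRISPR-Cas9 deletion at the promoter and first exon of the long non-coding RNA gene Lnc-Nr6a1, and the study grew such cells from single sorted cells. The labels do not say whether the KO libraries come from 1 clone or several, so a difference between genotypes cannot be told apart from a difference between clones. The study names its replicates as biological; the p-values below measure only the spread between these libraries. Totals ran from 4297832 counts in an untreated KO library to 13574397 in a treated KO library.

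The labels were checked in the targeted gene only in part. Gm13507, an annotated non-coding gene on the opposite strand inside Nr6a1, was taken as the targeted gene from its position, and whether its exons hold the deleted part is not given in the sources used here. It gave counts of 3 and 14 without treatment in control, where the libraries labelled KO gave 11 and 7. After TGF-β the control counts were 25 and 35 and those of the libraries labelled KO were 0 and 0, a level at least 24.7-fold higher in control when the floor is set at 3 counts over the group. The untreated libraries therefore overlapped, and the groups are called "labelled KO", or KO for short where a library is named, as a label only. Within the treated libraries labelled KO, replicate 2 lay above replicate 1 for all 10 YAP/TEAD genes, and the results below that this gap moves most are given without each of the pair. Skil and Smad7, early TGF-β target genes, rose in both genotypes by edgeR's quasi-likelihood test, with log2 fold changes of 2.09 and 1.69 in control cells and 2.34 and 2.28 in cells labelled KO.

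Epithelial identity was only in part visible: Cdh1 ran from 193 to 400 CPM (counts scaled to 1000000 per library) and Krt8 from 2126 to 4345 CPM, whereas 3 of the 7 epithelial markers listed, Epcam, Cldn3 and Cldn7, never passed 3 counts. The 7 epithelial markers summed to 4860 to 4983 CPM in untreated control and 7087 to 10000 CPM in treated control, and to 5332 to 5594 CPM and 6686 to 9109 CPM in cells labelled KO. Most of the sum was Krt8 and Krt18, the only 2 of the 4 markers tested that were called higher after TGF-β in control, beside 4.69% of all genes. None was called in cells labelled KO, beside 6.82% of all genes in either direction. Krt8 and Krt18 had log2 changes of 0.58 and 0.48 there, beside 0.65 and 0.96 in control. Cdh1 was higher in treated KO than in treated control libraries (log2 0.61, adjusted p = 0.0433 by edgeR). Summed markers of other cell types stayed low: at most 0.847 CPM for 4 endothelial genes, 4.73 CPM for 5 fibroblast genes and 5.32 CPM for 4 leukocyte genes. The 5 myoepithelial or basal markers summed to 2.87 to 5.67 CPM in untreated and 23.9 to 42.1 CPM in treated libraries, mostly through Krt14, and their part in the changes below was not tested. Because this is bulk RNA, fewer cells of a type and less RNA per cell cannot be told apart.

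TEAD factors bind the sequence GGAATG, which reads CATTCC on the other strand. The promoter sequences below are shown because TEAD factors bind that element, and whether they bind it in these windows was not tested. RefSeq windows of 300 bases (250 before to 50 after the annotated start, build GRCm38.p6) were at hand for 8 of the 10 genes, not for Ctgf and Tead1. The element was found on either strand in 7 of those 8 genes, beside 16.6% of all 27025 genes with a window (4481 genes). A match is a description of these letters and not a binding site. The full 250 bases before the start are given for Cyr61 (chr3:145649986-145650235, minus strand) and Ankrd1 (chr19:36119845-36120094, minus strand), with each match in capitals. Cyr61 held 1 match, beginning 103 bases before the start, and Ankrd1 held 2, beginning 210 and 123 bases before it.
Cyr61: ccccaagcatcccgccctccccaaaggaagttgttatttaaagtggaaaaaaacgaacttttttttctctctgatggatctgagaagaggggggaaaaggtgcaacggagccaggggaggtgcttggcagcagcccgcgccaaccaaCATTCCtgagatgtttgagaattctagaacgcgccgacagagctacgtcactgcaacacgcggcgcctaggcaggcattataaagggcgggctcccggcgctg
Ankrd1: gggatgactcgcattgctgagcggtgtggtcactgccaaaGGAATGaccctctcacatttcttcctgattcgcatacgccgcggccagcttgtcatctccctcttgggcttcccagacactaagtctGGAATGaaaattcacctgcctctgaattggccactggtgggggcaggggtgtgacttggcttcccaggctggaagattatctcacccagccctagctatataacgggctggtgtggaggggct

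For the other 5 genes with a match, 30 bases around it are shown, again with the element in capitals. The match began 65 bases before the start in Amotl2 (chr9:102717727-102717756, plus strand) and 141 bases before it in Yap1 (chr9:8004720-8004749, minus strand). In Wwtr1 (chr3:57576029-57576058, minus strand) a single match lay 136 or 170 bases before the start, according to which of 2 annotated starts is used. The match of Axl (chr7:25788949-25788978, minus strand) began 233 bases before the start, and that of Lats2 (chr14:57746102-57746131, minus strand) lay 5 bases past a start.
Amotl2: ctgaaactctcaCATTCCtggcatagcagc
Yap1: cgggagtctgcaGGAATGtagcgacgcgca
Wwtr1: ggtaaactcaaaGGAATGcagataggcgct
Axl: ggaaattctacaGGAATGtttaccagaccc
Lats2: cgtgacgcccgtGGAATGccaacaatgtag

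With a match in 7 of the 8 genes that have a window, these windows cannot sort the genes by their response. Amotl1, whose window held no match, and Cyr61, whose window held a match, were called higher after TGF-β in both genotypes. Ankrd1, Amotl2, Lats2, Yap1, Wwtr1 and Axl, whose windows held a match, did not pass the test for TGF-β in either. Ctgf, called higher in both, had no window.

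TGF-β raised 3 of the 10 genes in control cells: Ctgf, Cyr61 and Amotl1. Here and below a gene was called changed when edgeR's quasi-likelihood test gave a Benjamini-Hochberg adjusted p under 0.05 and the log2 fold change was above 0.5 in size. Of all genes tested, 4.69% were called higher in this comparison and 9.16% in either direction. The same 3 genes were called higher in cells labelled KO, where 4.25% of all genes were called higher and 6.82% in either direction. None of the 10 was called lower after TGF-β in either genotype, beside 4.47% of all genes in control and 2.57% in cells labelled KO. The median log2 fold change of the 10 genes was 0.31 in control and 0.46 in cells labelled KO, beside 0.016 and 0 over all genes tested. Libraries did not overlap in 7 of the 10 genes in control, 6 higher and 1 lower after treatment, and in 8 genes in cells labelled KO, all higher. Over all genes the libraries did not overlap in 27.4% (higher) and 26.3% (lower) in control and in 28.4% (higher) and 28.3% (lower) in cells labelled KO.

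**Figure D1:**
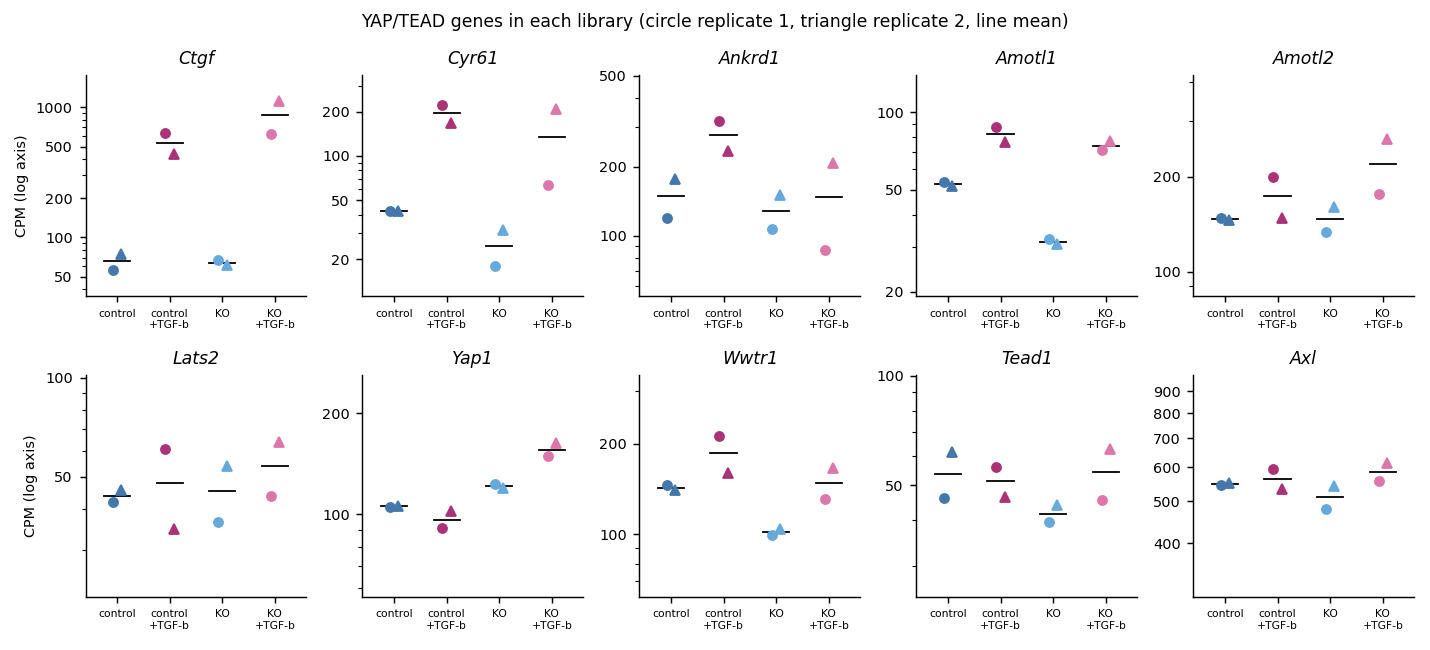
CPM of the 10 genes in each library, on log axes whose range differs between panels; circles are replicate 1, triangles replicate 2, short lines the mean of the 2, and KO means libraries labelled KO. Ctgf, Cyr61 and Amotl1 stood higher in all treated libraries than in the untreated libraries of the same genotype, and Yap1 was highest in the treated libraries labelled KO.

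Ctgf and Cyr61 encode secreted matricellular proteins of the CCN family and are the most widely used readouts of YAP/TEAD activity. Ctgf (chr10:24315248-24318489, plus strand; all gene positions are in NCBIM37/mm9) stood at 56.5 and 74.2 CPM in untreated control and at 630 and 438 CPM after TGF-β. In cells labelled KO it stood at 66.8 and 61.5 CPM untreated and at 627 and 1117 CPM treated. All 4 treated libraries lay well above all 4 untreated ones, by at least 5.90-fold in control and 9.39-fold in cells labelled KO. The fitted change was 8.17-fold in control (log2 3.03, SE 0.29, adjusted p = 7.98e-04 by edgeR) and 13.6-fold in cells labelled KO (log2 3.77, SE 0.30, adjusted p = 3.13e-04 by edgeR). With any 1 library left out it remained called, at log2 2.73 to 3.27 in control and 3.32 to 4.15 in cells labelled KO. In treated KO replicate 2 Ctgf had 14051 counts on 2490 annotated exonic bases, although the study's methods name removal of duplicate reads, and whether the counted files had it is not given in the sources used here. In the annotation 570 exonic bases of Ctgf overlap the lincRNA gene Gm15270 on the opposite strand, and since no source used here gives the strand setting, reads of the pair cannot be told apart.

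Cyr61 (chr3:145309935-145312949, minus strand) stood at 42.2 and 42.2 CPM in untreated control and at 223 and 168 CPM after TGF-β. In cells labelled KO it rose from 17.9 and 31.5 CPM to 63.6 and 207 CPM. The groups did not overlap in either genotype, but the 2 treated libraries labelled KO differed from each other by 3.25-fold, more than in any other group. The fitted change was 4.63-fold in control (log2 2.21, SE 0.47, adjusted p = 0.0226 by edgeR) and 5.39-fold in cells labelled KO (log2 2.43, SE 0.48, adjusted p = 0.0188 by edgeR). The control call was lost when either untreated control library was left out (adjusted p = 0.169 without replicate 1 and 0.124 without replicate 2), with the log2 change still 2.21. In cells labelled KO the call was lost without either untreated library (adjusted p = 0.157 and 0.0954) and with limma-voom (adjusted p = 0.0608). The log2 change there was 1.37 without treated replicate 2 and 3.07 without treated replicate 1.

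Ankrd1 encodes a cardiac ankyrin repeat protein found in the nucleus and the sarcomere, and is a classical YAP/TEAD target. Ankrd1 (chr19:36186455-36194334, minus strand) stood at 120 and 177 CPM in untreated control and at 317 and 234 CPM after TGF-β, so the groups did not overlap. In cells labelled KO it stood at 107 and 150 CPM untreated and at 86.9 and 208 CPM treated, where the treated libraries lay on both sides of the untreated ones. The log2 change was 0.89 (SE 0.37, adjusted p = 0.158 by edgeR) in control and 0.20 (SE 0.37, adjusted p = 0.804 by edgeR) in cells labelled KO, and neither was called. The second was 0.72 without treated KO replicate 1 and -0.54 without treated KO replicate 2. The control change passed without the filter on low counts (log2 0.89, adjusted p = 3.04e-05 by edgeR). Its size was the same there but its SE was 0.18, and 2021 genes were called instead of 1194. In that setting, here and below, more genes were called in every comparison. Without treated KO replicate 2 the control change was at log2 0.88.

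Amotl1, Amotl2 and Lats2 act against YAP and TAZ and are themselves among the genes that YAP and TEAD switch on. The angiomotin-like proteins, from Amotl1 and Amotl2, sit at cell junctions and bind YAP there. Amotl1 (chr9:14346410-14447973, minus strand) stood at 53.3 and 51.6 CPM in untreated control and at 87.5 and 76.7 CPM after TGF-β. In cells labelled KO it rose from 32.0 and 30.8 CPM to 71.0 and 77.2 CPM. Replicates were close to each other in every group, and the treated levels of the 2 genotypes overlapped although the untreated levels did not. The change was 1.57-fold in control (log2 0.65, SE 0.14, adjusted p = 0.0275 by edgeR) and 2.36-fold in cells labelled KO (log2 1.24, SE 0.15, adjusted p = 0.00206 by edgeR). The call in cells labelled KO remained with any 1 library left out. The control call was lost without either untreated control library (log2 0.67 and 0.63, adjusted p = 0.180 and 0.154), without treated control replicate 1 (0.53, adjusted p = 0.0627), without either untreated KO library (adjusted p = 0.0598 and 0.0606), and in a fit of the 4 control libraries alone (0.64, adjusted p = 0.0906).

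Amotl2 (chr9:102619002-102635748, plus strand) stood at 148 and 146 CPM in untreated control, 200 and 148 CPM in treated control, 134 and 161 CPM in untreated KO and 177 and 264 CPM in treated KO libraries. The treated libraries were the higher ones in both genotypes, although the closest pair in control had a ratio of 1.00. Neither change was called, at log2 0.24 (SE 0.22, adjusted p = 0.509 by edgeR) and 0.58 (SE 0.22, adjusted p = 0.152 by edgeR). The second passed without the filter (0.64, adjusted p = 0.00665) and without treated KO replicate 1 (0.86, adjusted p = 0.0463), and was 0.29 without treated KO replicate 2.

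Lats2 encodes the Hippo kinase that acts on YAP and TAZ directly. Lats2 (chr14:58260914-58377225, minus strand) stood at 41.9 and 45.8 CPM in untreated control, 61.0 and 34.7 CPM in treated control, 36.4 and 54.0 CPM in untreated KO and 43.9 and 63.8 CPM in treated KO libraries. The groups overlapped in both genotypes, and the 2 treated control libraries were on either side of the untreated pair. The log2 changes after TGF-β were 0.13 (SE 0.29, adjusted p = 0.819 by edgeR) and 0.25 (SE 0.30, adjusted p = 0.677 by edgeR). In the annotation, 332 exonic bases of Lats2 are shared with Xpo4 on the same strand, so the split of reads between this pair is uncertain.

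Neither the co-activator genes nor Tead1 passed the test for TGF-β in either genotype. Yap1 (chr9:7931999-8004596, minus strand; 116 exonic bases overlap a gene on the opposite strand) stood at 105 and 106 CPM in untreated control and at 90.8 and 102 CPM after TGF-β. In cells labelled KO it stood at 123 and 120 CPM untreated and at 149 and 163 CPM treated. Both treated control libraries lay below the untreated pair and both treated KO libraries above theirs, yet neither change was called: log2 -0.13 (SE 0.14, adjusted p = 0.576 by edgeR) and 0.35 (SE 0.14, adjusted p = 0.163 by edgeR).

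Wwtr1, which encodes TAZ (chr3:57259571-57379832, minus strand), stood at 146 and 140 CPM in untreated control, 212 and 160 CPM in treated control, 99.4 and 104 CPM in untreated KO and 131 and 166 CPM in treated KO libraries. Treated libraries were higher without overlap in both genotypes. The log2 changes, 0.38 (SE 0.18, adjusted p = 0.204 by edgeR) and 0.54 (SE 0.18, adjusted p = 0.109 by edgeR), were not called. The second passed without the filter (0.60, adjusted p = 0.0148) and without treated control replicate 1 or 2 (0.57 in both, adjusted p = 0.0393 and 0.0395).

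Tead1 encodes the DNA-binding partner (chr7:119822832-120050319, plus strand). It stood at 46.0 and 61.5 CPM in untreated control, 56.0 and 46.5 CPM in treated control, 39.5 and 44.0 CPM in untreated KO and 45.6 and 62.8 CPM in treated KO libraries. Control libraries overlapped and KO libraries did not. The log2 changes after TGF-β were -0.068 (SE 0.21, adjusted p = 0.873 by edgeR) and 0.37 (SE 0.21, adjusted p = 0.346 by edgeR). Axl encodes a receptor tyrosine kinase of the TAM family whose ligand is GAS6 (chr7:26542292-26573724, minus strand). It had the steadiest level of the 10 genes: 546 and 551 CPM, 594 and 535 CPM, 481 and 543 CPM, and 557 and 614 CPM in untreated control, treated control, untreated KO and treated KO libraries. Its log2 changes after TGF-β were 0.043 (SE 0.13, adjusted p = 0.871 by edgeR) and 0.19 (SE 0.13, adjusted p = 0.431 by edgeR).

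**Figure D2:**
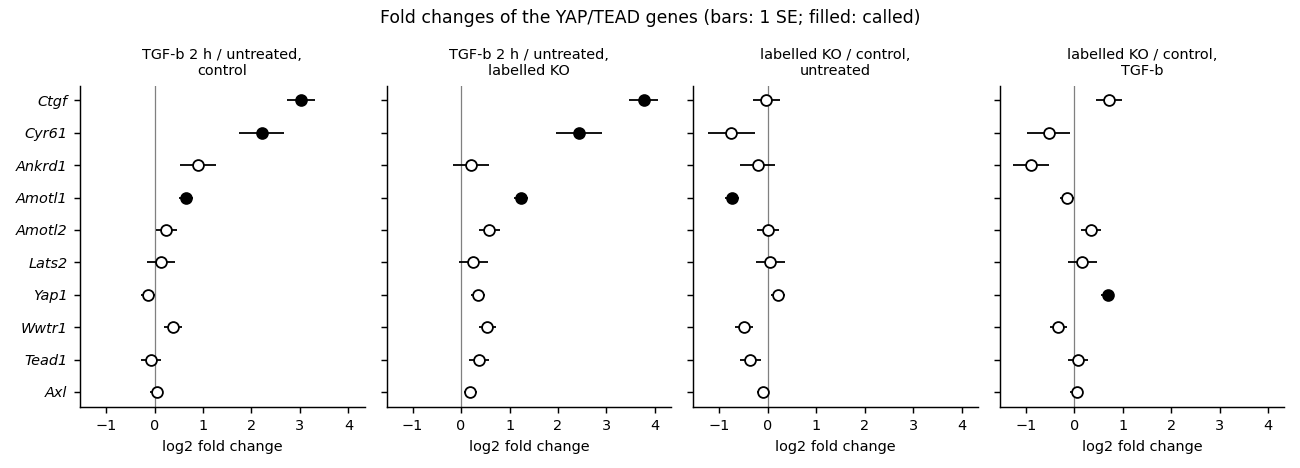
Log2 fold changes of the 10 genes from edgeR in the 4 comparisons, with bars of 1 SE; filled points were called and open points were not. After TGF-β Ctgf, Cyr61 and Amotl1 were called in both genotypes (log2 3.03, 2.21 and 0.65 in control, 3.77, 2.43 and 1.24 in cells labelled KO), and between genotypes only Amotl1 untreated (-0.74) and Yap1 treated (0.69) were called.

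On a scale of level per length (CPM per kilobase of annotated exon, leaving out bases shared with another gene on the same strand, which concerns Tead1 and Lats2), the order of the genes changed with treatment. Axl was highest in untreated cells, at 95.5 to 109 CPM per kilobase, and Ankrd1 stood at 60.6 to 100, so that the highest Ankrd1 library reached the range of Axl. Wwtr1 (20.8 to 30.6), Amotl2 (21.3 to 25.6) and Ctgf (22.7 to 29.8) shared a range in untreated libraries, and Cyr61 at 8.81 to 20.8 overlapped Yap1 at 11.4 to 13.3. Below these came Tead1 (5.34 to 8.33), Lats2 (5.22 to 7.74) and Amotl1 (3.11 to 5.37), whose ranges overlapped. After TGF-β Ctgf was the highest of the 10 in every treated library, at 176 to 448 CPM per kilobase. Ankrd1 came next in treated control (180 and 132, above Axl at 118 and 106), and Axl came next in treated KO libraries (111 and 122, beside Ankrd1 at 49.2 and 118).

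Between the untreated genotypes Amotl1 alone of the 10 genes was called, as lower in the libraries labelled KO. Of all genes tested, 0.798% were called lower here, 1.03% higher and 1.83% in either direction. The untreated levels given above, 53.3 and 51.6 CPM in control against 32.0 and 30.8 CPM in libraries labelled KO, did not overlap and put Amotl1 1.67-fold lower (log2 -0.74, SE 0.15, adjusted p = 0.0449 by edgeR). The size was stable at log2 -0.77 to -0.72 with any 1 library left out, but the call was not. It was lost without either untreated control library (adjusted p = 0.240 and 0.262), without either untreated KO library (0.270 and 0.297), without either treated KO library (0.0631 and 0.0632) and with limma-voom (0.0811).

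Ctgf did not differ detectably between untreated genotypes (log2 -0.027, SE 0.28, adjusted p = 0.977 by edgeR), and its libraries overlapped. Cyr61, Wwtr1, Tead1 and Axl had both KO libraries below both control libraries without being called, at log2 -0.75 (SE 0.48), -0.49 (SE 0.18), -0.36 (SE 0.22) and -0.099 (SE 0.13). Wwtr1 passed when only the 4 untreated libraries were fitted (log2 -0.51, adjusted p = 0.0315), and Cyr61 passed without the filter (-0.79, adjusted p = 0.00502). Yap1 had both KO libraries above both control libraries (log2 0.21, SE 0.14, adjusted p = 0.534 by edgeR). In all, 5 genes were lower and 1 higher without overlap, beside 25.2% and 26.8% of all genes tested. The remaining genes, Ankrd1, Amotl2 and Lats2, had log2 differences of -0.21, 0.009 and 0.053 and overlapping libraries.

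After TGF-β Yap1 alone of the 10 was called between genotypes, as higher in the libraries labelled KO, in a comparison that called 8.47% of all genes higher, 6.57% lower and 15.0% in either direction. The treated KO libraries (149 and 163 CPM) lay above the treated control libraries (90.8 and 102 CPM), a 1.61-fold difference (log2 0.69, SE 0.14, adjusted p = 0.0121 by edgeR). The call was lost without treated KO replicate 2 (log2 0.64, adjusted p = 0.0779) and in a fit of the 4 treated libraries alone (0.69, adjusted p = 0.0776). The epithelial marker Cdh1 was called higher in the same comparison, as given above, and its part in the Yap1 difference was not tested.

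Ctgf, Cyr61 and Ankrd1, the 3 genes with the widest gaps between the treated KO libraries, gave treated genotype differences whose call turned on the library left out or on the method. Ctgf was at log2 0.71 (SE 0.27, adjusted p = 0.108 by edgeR) in the libraries labelled KO relative to control. It passed with DESeq2 (0.71, adjusted p = 0.0359), without the filter on low counts (0.74, adjusted p = 2.06e-04), without treated control replicate 1 (1.01, adjusted p = 0.0433) and without treated KO replicate 1 (1.07, adjusted p = 0.0249), and fell to 0.25 without treated KO replicate 2. Cyr61 was at log2 -0.53 (SE 0.44, adjusted p = 0.448 by edgeR), which became -1.61 (adjusted p = 0.0239) without treated KO replicate 2 and 0.090 without treated KO replicate 1. Ankrd1 was at log2 -0.90 (SE 0.37, adjusted p = 0.129 by edgeR), with both KO libraries below both control libraries, and passed without the filter (-0.87, adjusted p = 3.30e-05) and without treated KO replicate 2 (-1.65, adjusted p = 0.0232), whereas without treated KO replicate 1 it was at -0.40. The other 6 genes were not called, with log2 differences of -0.15 for Amotl1, 0.34 for Amotl2, 0.17 for Lats2, -0.33 for Wwtr1, 0.08 for Tead1 and 0.052 for Axl.

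Whether TGF-β acted differently in the genotypes was tested as an interaction, the log2 change in cells labelled KO minus that in control. None of the 10 genes and none of the 13028 genes passed at an adjusted p under 0.05 with edgeR (0%). At an unadjusted p under 0.05, 1134 genes (8.70%) passed. DESeq2 called 31 genes and limma-voom 0, with none of the 10 genes among the calls of either. Of the 10 genes, 2 were among those 1134: Amotl1 (interaction 0.59, SE 0.21, adjusted p = 0.497 by edgeR) and Yap1 (0.48, SE 0.19, adjusted p = 0.525 by edgeR). For Ctgf the interaction was 0.74 (SE 0.39, adjusted p = 0.625 by edgeR), for Cyr61 0.22 (SE 0.65, adjusted p = 0.957 by edgeR) and for Ankrd1 -0.70 (SE 0.52, adjusted p = 0.751 by edgeR). Without treated KO replicate 1 and without treated KO replicate 2, the interaction was 1.12 and 0.30 for Ctgf and -0.17 and -1.42 for Ankrd1. The SEs leave room for sizeable differences in either direction for Cyr61, so the response cannot be called alike in the genotypes.

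In the treated libraries labelled KO all 10 genes were higher in replicate 2 than in replicate 1, with a median log2 gap of 0.50, whereas 49.2% of all genes tested were higher in replicate 2 and the median gap over all genes was -0.0046. The gap was 3.25-fold for Cyr61, 2.39-fold for Ankrd1 and 1.78-fold for Ctgf, and 99.3%, 98.6% and 96.2% of all genes tested had a lower signed value of replicate 2 minus replicate 1. Amotl1 and Yap1, at 1.09-fold each, and Axl, at 1.10-fold, differed little. In the treated control libraries the order was the other way: 9 of the 10 genes were higher in replicate 1, with a median log2 gap of -0.41 beside -0.013 over all genes, and Yap1 was the exception. The median log2 gap was 0.012 in untreated control and 0.17 in untreated cells labelled KO, where Cyr61 had a gap of 0.81 (1.76-fold). Replicate numbers carry no order, and the cause of these gaps was not tested.

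**Figure D3:**
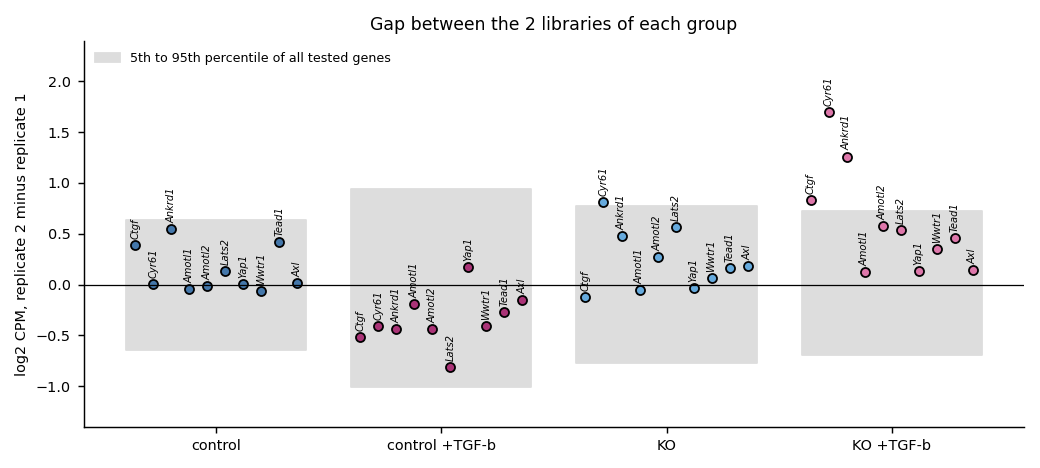
Log2 CPM in replicate 2 minus replicate 1 for each of the 10 genes in each group, over a grey band from the 5th to the 95th percentile of the same gap over all 13028 genes tested; KO means libraries labelled KO. In the treated libraries labelled KO all 10 points lie above 0 and Cyr61 (1.70), Ankrd1 (1.26) and Ctgf (0.83) lie above the band, which ends at 0.72. Cyr61 in untreated libraries labelled KO (0.81) lies above its band, which ends at 0.77, and in treated control 9 of 10 lie below 0.

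Several genotype differences stand beside a shift of the whole chromosome. Over the 640 genes tested on chromosome 3, which holds Cyr61 and Wwtr1, the median log2 difference between libraries labelled KO and control was -0.34 untreated and -0.34 treated. Over the 942 genes tested on chromosome 7, which holds Tead1 and Axl, it was -0.25 untreated and -0.14 treated. On the chromosomes of the other 6 genes it lay between 0.013 and 0.11. Measured from the median of its chromosome, Wwtr1 was at -0.15 untreated and 0.0091 treated, Tead1 at -0.11 and 0.22, Axl at 0.15 and 0.19, and Cyr61 at -0.41 and -0.20. Amotl1 (-0.81 untreated) and Yap1 (0.67 treated), both on chromosome 9 and both called, were not made smaller than 0.5 by this step. Whether the chromosome shifts contribute to the lower Wwtr1 and Cyr61 levels was not tested.

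**Figure D4:**
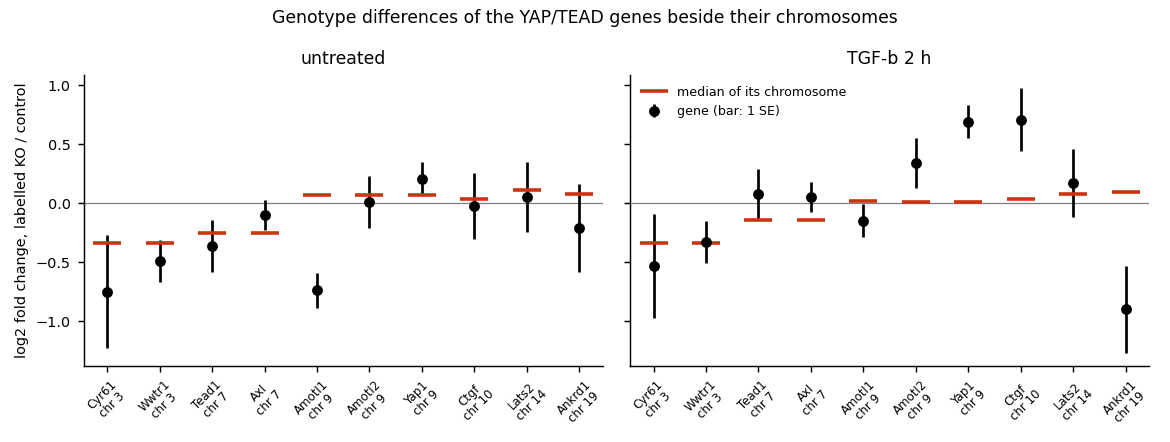
Log2 difference between libraries labelled KO and control for each of the 10 genes (points, bars of 1 SE) and for the median gene of its chromosome (red lines), untreated on the left and after TGF-β on the right. The medians of chromosome 3 (-0.34) and chromosome 7 (-0.25 untreated, -0.14 treated) lie below 0, and Ankrd1 treated, Amotl1 untreated (by -0.81) and Ctgf treated (by 0.68) lie farthest from their own.

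Among 16 further YAP/TEAD targets, 15 were tested. After TGF-β 5 were called higher in control and 6 in cells labelled KO, beside 4.69% and 4.25% of all genes, and none lower, with median log2 changes of 0.49 and 0.66. Nt5e, which encodes the ectonucleotidase CD73, went from 4.95 and 6.96 to 42.0 and 62.3 CPM in control and from 7.50 and 6.38 to 53.1 and 42.4 CPM in cells labelled KO (log2 3.13, SE 0.27, adjusted p = 5.07e-04 and 2.79, SE 0.28, adjusted p = 7.90e-04 by edgeR). F3, which encodes tissue factor, went from 43.7 and 50.4 to 381 and 207 CPM in control and from 26.9 and 34.8 to 106 and 495 CPM in cells labelled KO (log2 2.64 and 3.27). Its treated KO libraries differed in the same direction as those of Cyr61. Gadd45a, a growth arrest and stress gene (2.22 and 1.83), the forkhead gene Foxf2 (1.32 and 1.32) and the kinase gene Nuak2 (0.91 and 0.77) were called in both genotypes. Dock5, a guanine nucleotide exchange factor, was called in cells labelled KO (1.01). Between genotypes no target of this list was called untreated, where 1.83% of all genes were. After TGF-β 3 were higher in libraries labelled KO, beside 8.47% of all genes: Dock5 (0.74), Myof (0.64) and the phosphatase gene Ptpn14 (0.71).

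Of the relatives of the 10 genes, the CCN family gene Wisp1 followed Ctgf and Cyr61. It went from 89.9 and 129 to 482 and 482 CPM in control (log2 2.14, SE 0.20, adjusted p = 6.43e-04 by edgeR) and from 62.6 and 82.7 to 388 and 395 CPM in cells labelled KO (2.43, SE 0.20, adjusted p = 3.55e-04 by edgeR). In that list 5 of 10 genes were tested, and Wisp1 was the only one called after TGF-β, beside 9.16% of all genes in control and 6.82% in cells labelled KO. Wisp2 was higher in treated libraries labelled KO than in treated control (log2 1.51, adjusted p = 0.0240 by edgeR), where 8.47% of all genes were called higher.

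Among the other TEAD genes and the Vestigial-like cofactors that bind TEAD, 5 of 7 were tested. Vgll4, which competes with YAP for TEAD, rose from 48.1 and 37.1 to 109 and 86.0 CPM in control (log2 1.19, adjusted p = 0.00577 by edgeR) and from 51.8 and 47.6 to 125 and 111 CPM in cells labelled KO (1.25, adjusted p = 0.00497 by edgeR). Vgll3 was nearly absent from the libraries labelled KO. It had 49 and 38 counts in untreated and 129 and 65 in treated control libraries, against 2 and 3 untreated and 1 and 0 treated counts in libraries labelled KO. The ratio of control to KO was 12.7 untreated (95% exact binomial interval 5.25 to 40.2) and 240 treated (42.5 to 9513), intervals that cover counting error only. Both differences were called (adjusted p = 0.0208 and 7.75e-04 by edgeR). Unlike Gm13507, Vgll3 separated the untreated groups completely.

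Of 14 Hippo kinases and scaffolds, 2 were called higher and 1 lower in control, where 9.16% of all genes were called, and 2 higher in cells labelled KO, where 6.82% were. No test compared the lists with each other or with all genes. The kinase gene Map4k4, which acts on LATS in parallel to the MST kinases, was called in both (log2 0.84 and 1.01). Stk3, which encodes MST2, was called higher in control (0.61) and Taok2 lower (-0.54), and the scaffold gene Wwc2 was called higher in cells labelled KO (0.73). After TGF-β the libraries labelled KO had higher Wwc2 (0.67) and lower Stk3 (-0.64) than control, where 8.47% of all genes were called higher and 6.57% lower.

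Of 8 genes for the retention and turnover of YAP, 1 was called higher in control (4.69% of all genes) and 3 higher and 1 lower in cells labelled KO (4.25% and 2.57%). Csnk1e, a casein kinase gene, was called higher in both genotypes (1.00 and 0.89), and Csnk1d (0.62) and Fbxw11 (0.59), a subunit of the ubiquitin ligase that turns YAP over, in cells labelled KO. Wtip, a LIM protein gene, had 57 and 19 counts in treated control and 1 and 1 in treated libraries labelled KO, a ratio of 46.9 (95% exact binomial interval 12.6 to 395, counting error only; adjusted p = 0.00731 by edgeR). Untreated, its libraries had 36 and 26 against 17 and 9 counts, and it was the only gene of this list called lower after TGF-β, in cells labelled KO (adjusted p = 0.0243 by edgeR). Of 10 junction and polarity genes, 9 were tested. In control, where 4.47% of all genes were called lower and 4.69% higher, 3 were called lower, Crb3 (-2.04), Llgl2 (-1.36) and Dlg5 (-0.55), and Mpp5 higher (0.72), and none was called in cells labelled KO (6.82% of all genes), where Crb3 was at -1.91 (adjusted p = 0.0525 by edgeR). In edgeR's interaction test none of all 13028 genes was called (0%), these lists' genes included, so it does not show alike responses. Treated libraries labelled KO had higher Dlg5 (0.90) and Inadl (1.16) than treated control, where 8.47% of all genes were called higher.

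**Figure D5:**
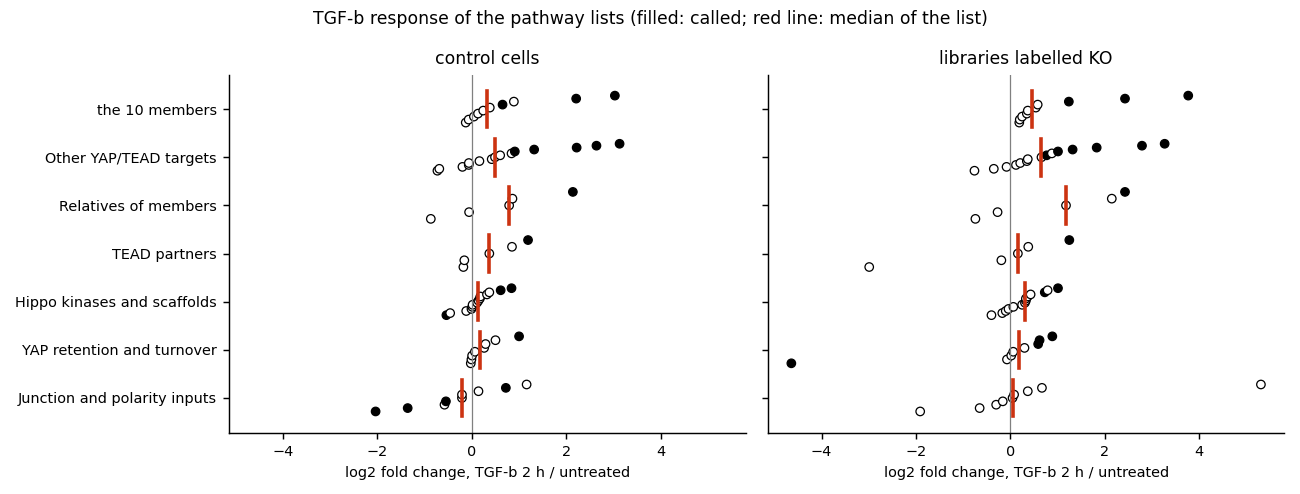
Log2 change after TGF-β of each tested gene in the 10 members and 6 pathway lists, in control cells and in libraries labelled KO; filled points were called, open points were not, and red lines are medians. The medians are 0.31 and 0.46 for the 10 members, 0.49 and 0.66 for the other targets and 0.79 and 1.18 for the relatives. They are 0.37 and 0.16 for the TEAD partners and 0.13 and 0.32 for the Hippo kinases. For retention and turnover they are 0.16 and 0.18, and for junction and polarity -0.21 and 0.047. The 2 points beyond 4 in size on the right are Wtip (1 and 1 treated counts) and Fat4 (0 and 0 untreated counts). Their fitted values are no bound.

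Genes whose levels ran most like those of the members were ranked by Pearson's r of log2 CPM over the 8 libraries. The ranking is a description without a test. For Ctgf and Cyr61 every treated library lay above every untreated one, so treatment enters the spread they share with other genes. Yap1 was not called after TGF-β in either genotype, and its treated libraries stood apart by genotype (149 and 163 CPM in KO, 90.8 and 102 CPM in control). For Ankrd1 the treated KO libraries (86.9 and 208 CPM) lay on both sides of the untreated KO ones (107 and 150 CPM). Nearest to Ctgf were Fbxw11 (r = 0.998), Gcnt2 (0.994) and Spin1 (0.994), of which Fbxw11 belongs to the pathway. Nearest to Cyr61 were Kdm2a (0.991), Fam110c (0.987) and Bcar3 (0.985). Ankrd1 ran most like Cdk13 (0.982), Gm9825 (0.964) and Pus7 (0.941), and Yap1 most like Afg3l2 (0.991), App (0.989) and Pld3 (0.978).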

How the data were processed

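RNA-seq counts of 8 NMuMG libraries were analysed. The authors deposited raw read counts per gene in a single table whose 37310 identifiers are those of GENCODE vM1 on NCBIM37/mm9, although the submitters' processing notes name HISAT2, limma and mm10, and the study's methods name subjunc, both mm10 and mm9, and removal of duplicate reads. The counting tool, its strand setting and which alignment the table came from are not given in the sources used here. The kit and sequencer also differ between the labels and the methods.

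Genes were filtered with filterByExpr over the 4 groups (13028 kept) and scaled by TMM factors. CPM is the count scaled to a total of 1000000 per library, and log2 levels used a prior count of 2. All 8 libraries were fitted in 1 model of the 4 groups with edgeR 4.0.16 (R 4.3.3), with a quasi-likelihood test, Benjamini-Hochberg adjustment over all genes tested and 4 residual degrees of freedom. The common biological coefficient of variation was 0.18. Genes were called at an adjusted p under 0.05 and a log2 fold change above 0.5 in size, after the study's thresholds. SE is the fold change over the root of F. The method was tested on simulated data. DESeq2 1.42.0 and limma 3.58.1 (voom) were alternatives. The 10 genes and all lists were chosen with earlier results of these data known, and the text names all 10 and, per list, called genes by smallest p. Fat4 and the targeted gene were added to the text for their counts. With 4297832 to 13574397 counts per library, 1 CPM is at least 4 counts.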

Additional observations from a re-analysis of the deposited data

Results flagged for a closer look

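Neither Yap1 change after TGF-β passed the test (adjusted p = 0.576 in control and 0.163 in cells labelled KO by edgeR), but their signs were opposite: both treated control libraries lay below the untreated pair (log2 -0.13, SE 0.14) and both treated libraries labelled KO lay above theirs (log2 0.35, SE 0.14). Over all genes tested, libraries did not overlap in 26.3% (lower after TGF-β) in control and in 28.4% (higher) in cells labelled KO. The test of the difference itself gave 0.48 (SE 0.19, adjusted p = 0.525 by edgeR), which does not pass. Groups of 2 libraries are too small for a check of single outlying libraries.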

How the results depend on the processing

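With 2 libraries a group, counts of called genes moved widely, and the cause was not tested. TGF-β in control called 1194 genes, 2021 without the filter, 470 in a fit of its 4 libraries and 145 to 1484 with 1 library left out, and 3 of the 10 genes, 1 to 4 with 1 library left out (1 without either untreated control library). TGF-β in cells labelled KO called 889 genes, 1832 without the filter and 136 to 1381 with 1 left out, and 3 of the 10 genes, 5 without the filter and 2 to 4 with 1 left out. The untreated genotype comparison called 238 genes, 408 with DESeq2, 137 with limma-voom, 756 without the filter, 804 in its 4 libraries and 42 to 390 with 1 left out, and 1 of the 10 genes, 0 with limma-voom, 2 without the filter, 2 in its 4 libraries and 0 to 1 with 1 left out. The treated genotype comparison called 1959 genes, 410 in its 4 libraries and 477 to 2762 with 1 left out, and 1 of the 10 genes, 2 with DESeq2, 3 without the filter, 0 in its 4 libraries and 1 to 2 with 1 left out. The interaction called 0 genes, 31 with DESeq2, 211 without the filter and 0 to 6 with 1 left out.

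The labels do not say that a replicate number marks a shared batch, and the numbers were taken as names only: deviations of same-numbered libraries correlated at 0.297 between untreated and treated control and at -0.473 between the treated genotypes. The replicate block called 831, 676, 150, 1490 and 0 genes in the 5 tests, in the order above, and 3, 3, 0, 1 and 0 of the 10 genes. A block with crossed numbers, chosen after seeing the data, called 2809 genes in the treated genotype comparison.

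Of 850 alternatives for single genes, 16 gained and 21 lost a call, 5 moved by over 1 SE when measured from the chromosome median, and 39 others changed sign. Measured from that median, the untreated difference also turned sign for Amotl2 (-0.062), Lats2 (-0.058) and Axl (0.15), and the treated one for Wwtr1 (0.0091). None of the sign changes touched a called value. After TGF-β in control, thinned counts gave -0.020 for Lats2 and 0.048 for Tead1. Untreated between genotypes, Amotl2 was at -0.0033 with DESeq2, -0.00011 with RLE factors, -0.026 without the filter, -0.012 thinned and -0.012 in the 4 libraries, and Lats2 at -0.094 thinned. With 1 library left out, log2 changes after TGF-β in control ran from -0.0069 to 0.44 for Amotl2, -0.35 to 0.48 for Lats2, -0.26 to 0.16 for Tead1 and -0.049 to 0.12 for Axl, and in cells labelled KO from -0.54 to 0.72 for Ankrd1 and -0.019 to 0.58 for Lats2. Untreated genotype differences ran from -0.22 to 0.18 for Ctgf, -0.48 to 0.095 for Ankrd1, -0.14 to 0.13 for Amotl2 and -0.27 to 0.30 for Lats2. Treated ones ran from -1.61 to 0.090 for Cyr61, -0.18 to 0.65 for Lats2, -0.16 to 0.30 for Tead1 and -0.018 to 0.15 for Axl. Interactions ran from -0.83 to 0.86 for Cyr61 and -0.21 to 0.62 for Lats2.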
